A study of Mus musculus with 4 samples.

Results

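Receptors through which pancreatic islet cells sense hormones, nutrients and neighbouring peptides were followed by the counts of 10 genes, taken by symbol from 21594 genes in 4 single-cell matrices. They were Glp1r, Gipr, Gcgr, Ffar1, Ffar4, Sstr3, Ghsr, Oxtr, Prlr and Lepr, and all 10 were present in the files. Single-cell RNA had been counted in dissociated islets of 2-month-old mice, in 2 Atf4 mutant samples (Atf4F/F; Ins1Cre) and 2 control samples (Atf4F/F). Both groups carried the floxed Atf4 alleles and neither was treated. Only the mutants carried Ins1Cre, which directs recombination to insulin-producing beta cells, so the loss of Atf4, a transcription factor of the stress response, and the driver allele itself cannot be told apart. Islets had been pooled for each sample, from 2 male and 2 female mice by the design text. The protocol gives 3 to 4 mice. The p-values of mutants against controls weigh the group difference against the spread between pools, which is partly borrowed across genes. Tests between cell classes, and of the mutant effect between classes, had the sample as a block, which takes out the spread between pools. Their p-values weigh the spread that is left among class sums of the same samples. No p-value here speaks of single mice. Of the 10 genes, 8 passed the low-count filter in beta-like cells, while Ghsr and Lepr did not.

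The receptors fall into families with different routes into the cell. Glp1r, Gipr and Gcgr, the receptors of GLP-1, GIP and glucagon, couple mainly to the stimulatory G protein and raise cyclic AMP, which amplifies insulin release. Ffar1 and Ffar4 sense long-chain fatty acids, the first mainly through Gq and phospholipase C. Sstr3 is a somatostatin receptor coupled to inhibitory G proteins, and Ghsr is the ghrelin receptor. Oxtr, the oxytocin receptor, acts mainly through Gq. Prlr and Lepr, the prolactin and leptin receptors, are cytokine receptors that signal through JAK2 and STAT proteins, and prolactin signalling is known for the growth of beta cell mass in pregnancy.

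On the mouse assembly GRCm38, in the GENCODE vM21 annotation, Glp1r lies on chromosome 17 from 30901817 to 30940791 (plus strand), Gipr on chromosome 7 from 19156061 to 19166127 (minus), and Gcgr on chromosome 11 from 120530699 to 120538986 (plus). Ffar1 lies on chromosome 7 from 30857390 to 30861564 (minus), Ffar4 on chromosome 19 from 38097071 to 38114263 (plus), Sstr3 on chromosome 15 from 78537008 to 78544685 (minus) and Ghsr on chromosome 3 from 27371351 to 27378010 (plus). Oxtr lies on chromosome 6 from 112473683 to 112489943 (minus), Prlr on chromosome 15 from 10177238 to 10349180 (plus) and Lepr on chromosome 4 from 101717404 to 101815352 (plus).

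Promoter windows of RefSeq (assembly GRCm38.p6), from 250 bases before to 50 after a start site, were at hand for 9 of the 10 receptors, Gipr being the exception, in 13 windows. They were searched on both strands for the cyclic AMP response element TGACGTCA, its half-site TGACG, the C/EBP-ATF element bound by Atf4, TGATGNAAN, and the STAT element TTCNNNGAA. The full cyclic AMP element holds the half-site within it. Neither TGACGTCA nor TGATGNAAN occurred in any of the 13 windows, and they occurred in 1.79% and 3.95% of all 32851 windows in the table. TGACG, present in 20.8% of all windows, was found in a Prlr window and in a Sstr3 window, and TTCNNNGAA, present in 8.30%, in that same Prlr window. The windows of the 3 receptors whose beta-like levels differed most between the groups are shown, 5′ to 3′ on the gene's strand, with the matches in capitals. Of the 3 Prlr windows the one with matches is shown, and the other two held none. They lie at chr6:112489776-112490075 (Oxtr, minus strand), chr15:10223656-10223955 (Prlr, plus strand, with TGACG starting 230 bases and TTCNNNGAA 110 bases before the start site) and chr19:38096829-38097128 (Ffar4, plus strand).
Oxtr: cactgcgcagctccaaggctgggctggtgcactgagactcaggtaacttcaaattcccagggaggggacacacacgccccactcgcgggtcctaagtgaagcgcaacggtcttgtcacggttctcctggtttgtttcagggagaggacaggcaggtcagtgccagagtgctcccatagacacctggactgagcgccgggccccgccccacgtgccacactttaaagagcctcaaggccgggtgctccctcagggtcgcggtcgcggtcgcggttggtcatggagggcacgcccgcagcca
Prlr: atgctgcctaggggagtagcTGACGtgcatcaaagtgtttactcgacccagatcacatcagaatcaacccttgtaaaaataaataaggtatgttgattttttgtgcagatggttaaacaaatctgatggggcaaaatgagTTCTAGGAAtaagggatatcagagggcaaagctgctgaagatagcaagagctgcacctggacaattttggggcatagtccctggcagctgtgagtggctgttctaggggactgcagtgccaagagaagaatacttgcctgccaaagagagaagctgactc
Ffar4: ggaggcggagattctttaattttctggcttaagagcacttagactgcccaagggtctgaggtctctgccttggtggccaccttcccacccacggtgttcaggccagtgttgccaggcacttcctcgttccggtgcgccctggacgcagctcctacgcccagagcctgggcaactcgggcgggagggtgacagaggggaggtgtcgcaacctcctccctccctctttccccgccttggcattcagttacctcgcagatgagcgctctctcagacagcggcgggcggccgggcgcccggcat
A match in such a window is a description of its letters and no evidence of binding.

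The deposited matrices held 13706563 to 17655893 counts of unique molecular identifiers (UMIs) per sample, and 6967 cells passed the filters. Clustering without the 10 receptors gave 16 clusters, named from marker genes. Mutants 1 and 2 gave 831 and 930 beta-like cells and controls 1 and 2 gave 1311 and 1093, with 9336204 to 12094140 UMIs per sum. Alpha-like cells numbered 117 and 222 in the mutant samples, against 152 and 147 in the controls, delta-like cells 144 and 207 in the mutant samples, against 160 and 135 in the controls, and PP-like cells 133 and 160 in the mutant samples, against 180 and 81 in the controls. Atf4 in beta-like cells stood at 3.53 and 116 CPM (counts per 1000000 UMIs of the sum) in mutant samples 1 and 2, against 335 and 376 CPM in control samples 1 and 2, so mutant 2 kept part of its Atf4 RNA. Libraries shared 41 to 82 barcodes in pairs. The delta-like and PP-like clusters were mixed: their insulin RNA was 41.9 to 62.9% of the beta-like level. Insulin RNA was also high in the endothelial-like sums, at 185882 to 313045 CPM, and in the macrophage-like ones, at 143894 to 234508 CPM. The beta-like sums held 303391 to 358454 CPM of it. Its part in the receptor levels of the endothelial-like and macrophage-like classes was not tested. Glucagon RNA in the PP-like cluster, 86460 and 79620 CPM in the mutants and 67342 and 81636 CPM in the controls, exceeded that of pancreatic polypeptide in every sample, and in the delta-like cluster it was 18692 to 34440 CPM. Alpha-like sums held 218348 and 240131 CPM of glucagon RNA in the mutants and 208946 and 219567 CPM in the controls. Oxtr averaged 31.0 CPM in the mutants and 28.9 CPM in the controls in the PP-like cluster. In alpha-like cells it averaged 79.7 CPM in the mutants and 87.2 CPM in the controls. The part of the mixing in the Oxtr and Ffar4 levels of the delta-like and PP-like clusters was not tested. Further, the delta-like sum of control 2 held 2410 CPM of haemoglobin RNA, against at most 2.12 in the other 3. Endocrine cells in which at least 80% of hormone counts came from 1 hormone were therefore also read as a hormone gate. It kept 62 and 84 delta-like cells of the mutants, against 57 and 47 of the controls, and 27 and 12 PP-like cells of the mutants, against 35 and 11 of the controls.

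For 9 of the 10 receptors the leading endocrine class was the same in at least 3 of the 4 samples, Lepr being the exception. Beta-like cells led for Prlr, Ffar1, Gipr, Gcgr, Glp1r and, by a small margin, Sstr3, alpha-like cells for Oxtr, and delta-like cells for Ffar4 and Ghsr. Lepr was low in every endocrine class, with 0 to 5 UMIs per sample and class. Of the 7 receptors that could be tested, 5 were higher and 2 lower in beta-like cells than in alpha-like, delta-like and PP-like cells alike (edgeR quasi-likelihood test with the sample as a block, Benjamini-Hochberg adjusted p under 0.05). That is a setting in which many genes differ: 51.1%, 33.7% and 23.8% of 10166 genes passed against the alpha-like, delta-like and PP-like cells. The calls against PP-like cells were the least stable: Sstr3 lost its call under 7 of 13 alternatives and Gipr under 5 of 11. In the hormone gate Oxtr lost it too (−1.15, edgeR adjusted p = 0.338). Gcgr and Gipr did not pass the low-count filter in that gate. In the clusters Gcgr passed the filter through its beta-like sums alone, so its calls there are no independent support for a higher beta-like level.

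**Figure D1:**
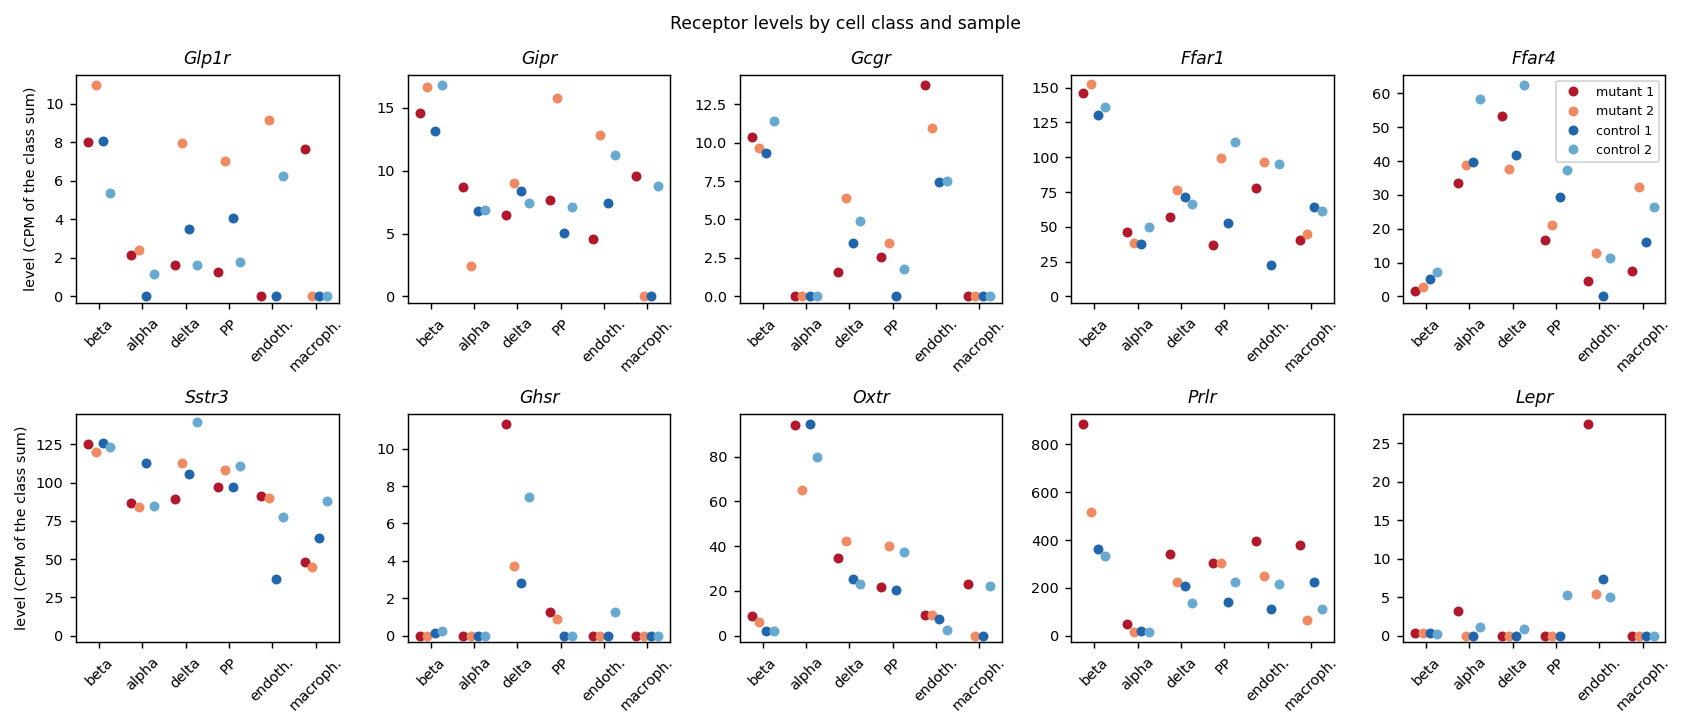
Level of each receptor (y axis, CPM of the class sum, linear, own scale in each panel) in 6 cell classes (x axis), with 1 point per sample, mutants in red tones left of controls in blue tones. Oxtr stands highest in alpha-like cells, Ffar4 in alpha-like and delta-like cells, and Prlr in beta-like cells.

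Among the receptors that raise cyclic AMP, Gcgr gave the sharpest contrast. It had 10.4 and 9.61 CPM in beta-like cells of the mutants and 9.34 and 11.4 CPM in those of the controls, against 0 UMIs in alpha-like cells of all 4 samples. With 3 counts over all alpha-like cells as the floor, the beta-like level was at least 13.4-fold higher. The cells that make glucagon thus had no count of the glucagon receptor at this depth. Gipr had 14.6 and 16.6 CPM in mutant and 13.1 and 16.8 CPM in control beta-like cells, against 8.66 and 2.38 CPM in mutant and 6.83 and 6.85 CPM in control alpha-like cells (log2 difference, beta-like minus alpha-like, 1.64 ± 0.286 SE, edgeR adjusted p = 1.01e-05). Glp1r had 8.03 and 10.96 CPM in mutant and 8.08 and 5.37 CPM in control beta-like cells, against 2.17 and 2.38 CPM in mutant and 0 and 1.14 CPM in control alpha-like cells. Glp1r had only 6 UMIs in all alpha-like cells and did not pass the filter for the test between classes.

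Of the fatty acid receptors, Ffar1 was led by beta-like and Ffar4 by delta-like cells, and both were found in alpha-like cells. Ffar1 had 147 and 153 CPM in mutant and 130 and 136 CPM in control beta-like cells, against 46.6 and 38.1 CPM in mutant and 37.5 and 50.3 CPM in control alpha-like cells (log2 difference 2.00 ± 0.149, edgeR adjusted p = 1.58e-13). Ffar4 had 1.71 and 2.79 CPM in mutant and 5.22 and 7.11 CPM in control beta-like cells, against 53.2 and 37.7 CPM in mutant and 41.9 and 62.5 CPM in control delta-like cells (log2 difference −3.31 ± 0.195, edgeR adjusted p = 9.73e-16). The alpha-like level of Ffar4, 33.6 and 38.9 CPM in the mutants and 39.8 and 58.2 CPM in the controls, overlapped the delta-like one (alpha-like minus delta-like −0.24 ± 0.198, edgeR adjusted p = 0.418; 29.0% of genes passed that contrast). In the hormone gate that gap widened to −0.78 ± 0.282 (edgeR adjusted p = 0.0414, where 21.9% of genes passed).

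Sstr3, the somatostatin receptor, was spread over all endocrine cells. It had 125 and 120 CPM in mutant and 126 and 123 CPM in control beta-like cells, against 86.6 and 84.2 CPM in mutant and 113 and 84.5 CPM in control alpha-like cells. The log2 difference of 0.70 ± 0.101 passed the test (edgeR adjusted p = 4.83e-07), and the delta-like level, 89.5 and 113 CPM in the mutants and 106 and 140 CPM in the controls, overlapped both, with a log2 difference of 0.36 ± 0.0906 between beta-like and delta-like cells (edgeR adjusted p = 0.00180). In the gate, beta-like and PP-like levels of Sstr3 did not differ beyond their spread (0.24 ± 0.189, edgeR adjusted p = 0.430). Ghsr, the ghrelin receptor, had 14 and 7 UMIs in mutant and 4 and 9 UMIs in control delta-like cells, which is 11.3 and 3.72 CPM in the mutants and 2.80 and 7.40 CPM in the controls. Alpha-like cells had 0 Ghsr UMIs in all 4 samples, so the delta-like level was at least 7.73-fold higher, and beta-like cells had 5 UMIs in all.

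Oxtr was a gene of alpha-like cells. It had 8.68 and 5.996 CPM in mutant and 2.27 and 2.15 CPM in control beta-like cells, against 94.2 and 65.2 CPM in mutant and 94.4 and 79.9 CPM in control alpha-like cells (log2 difference −3.93 ± 0.228, edgeR adjusted p = 1.99e-16). The delta-like level lay between them, at 34.7 and 42.5 CPM in the mutants and 25.2 and 23.0 CPM in the controls, and it was 47.4 and 59.6 CPM in the mutants and 33.9 and 37.9 CPM in the controls among gated delta-like cells.

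Prlr, with the most counts of the 10, was a gene of beta-like cells. It had 884 and 517 CPM in mutant and 361 and 334 CPM in control beta-like cells, against 49.8 and 17.5 CPM in mutant and 18.2 and 14.8 CPM in control alpha-like cells (log2 difference 4.65 ± 0.166, edgeR adjusted p = 2.53e-22). Lepr, the other cytokine receptor, had 3 and 4 UMIs in mutant and 5 and 2 UMIs in control beta-like cells. Endothelial-like cells had 27.5 and 5.48 CPM of Lepr in the mutants and 7.43 and 4.99 CPM in the controls, from 6, 3, 1 and 4 UMIs. These were above every endocrine class in 3 samples, while in control 2 the PP-like level, 5.36 CPM from 3 UMIs, was higher, and all these levels rest on few UMIs.

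For the receptors led by beta-like cells, the mixed clusters and the hormone gate gave different levels in delta-like cells. The prolactin receptor Prlr in the delta-like cluster was at 341 and 225 CPM in the mutants and 210 and 136 CPM in the controls. The ratio of its insulin RNA to that of beta-like cells, times the beta-like Prlr level, gave 371 and 222 CPM for the mutants and 164 and 148 CPM for the controls. In the hormone gate, delta-like Prlr was 30.1 and 10.8 CPM in the mutants and 4.84 and 25.3 CPM in the controls, from 7, 4, 1 and 4 UMIs. On average it made up 45.2 ± 8.83% of the beta-like level in the delta-like cluster and 3.63 ± 2.78% in the gate (SD, n = 4 samples). Ffar1 went the same way, with 48.2 ± 6.59% in the delta-like cluster and 1.16 ± 2.32% in the gate, where all 4 samples held a single UMI. It stayed at 28.5 ± 4.10% in gated alpha-like cells. There Ffar1 was higher in alpha-like than in delta-like cells (log2 difference 5.26 ± 0.658, edgeR adjusted p = 1.65e-08), while in the clusters it was lower (−0.73 ± 0.182, adjusted p = 0.00215). Sstr3 kept 76.5 ± 18.0% of the beta-like level in gated delta-like cells and 103 ± 14.2% in gated PP-like cells. Gipr kept 44.1 ± 20.4% in gated alpha-like cells, and Gcgr had 0 UMIs in gated PP-like cells of all 4 samples.

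**Figure D2:**
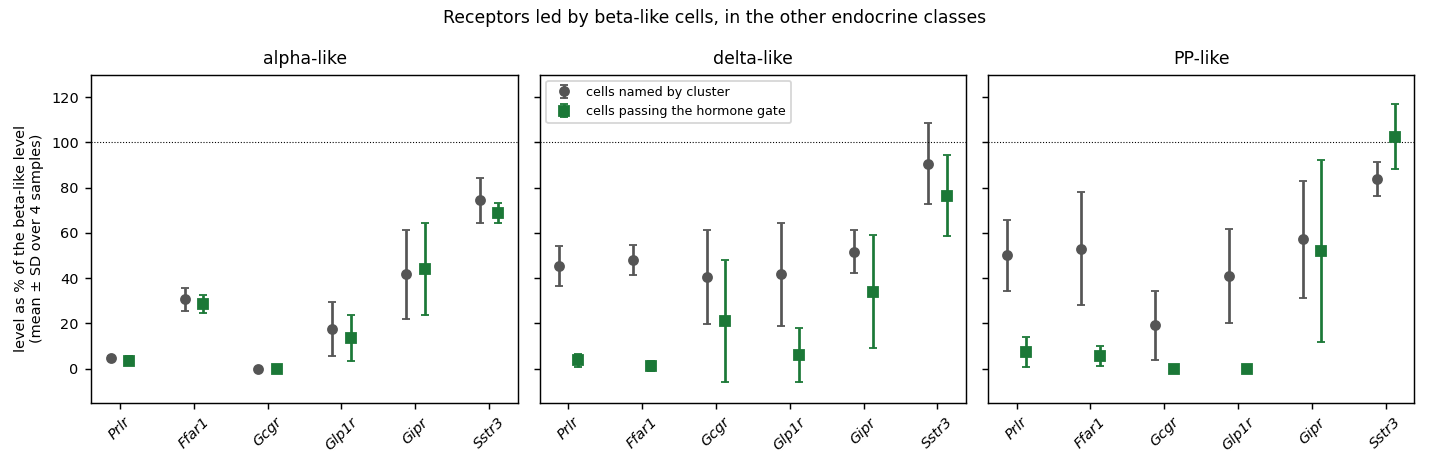
Level of 6 receptors in alpha-like, delta-like and PP-like cells (panels) as a percentage of the beta-like level of the same sample (y axis, mean ± SD over 4 samples), for cells named by cluster (grey circles) and cells passing the hormone gate (green squares). Prlr and Ffar1 in delta-like cells drop to 3.63% and 1.16% in the gate, while Sstr3 stays at 76.5%.

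The mutants differed from the controls in the beta-like cells for Oxtr and, short of the threshold, for Prlr and Ffar4. Of the 8 receptors tested there 1 rose and 0 fell (edgeR quasi-likelihood test, adjusted p under 0.05; DESeq2 called 2 and limma-voom 1), where 0.825% of all 13461 genes passed, 77 higher and 34 lower. The mutant samples lay on one side of both controls for 4 of the 8 receptors, Oxtr, Prlr, Ffar4 and Ffar1, which was so for 46.9% of all genes tested.

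Oxtr, at 8.68 and 5.996 CPM in mutant samples 1 and 2, against 2.27 and 2.15 CPM in controls 1 and 2 (81, 58, 27 and 26 UMIs), rose by 1.61 on the log2 scale (SE 0.275, 2 samples a group, edgeR adjusted p = 0.0354). Both mutants were above both controls, yet the mutant level stayed well under that of alpha-like cells. RNA carried over from alpha cells in the ratio of their glucagon would give 0.527 and 0.547 CPM in mutant and 0.781 and 0.458 CPM in control beta-like cells. The 10 alpha markers, all detected, summed to 4000 and 4509 CPM in mutant and 3743 and 3411 CPM in control beta-like cells, of which glucagon made up 1221 and 2018 CPM in the mutants and 1729 and 1258 CPM in the controls. Without mutant 1 the edgeR adjusted p of Oxtr was 0.220. With the cluster of digestive-enzyme RNA counted as beta-like, a choice made after seeing the data, it was 0.0762.

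Prlr, at 884 and 517 CPM in mutant samples 1 and 2, against 361 and 334 CPM in controls 1 and 2, had a log2 change of 0.89 ± 0.199 with an edgeR adjusted p of 0.0883, short of the threshold. The mutants did not overlap the controls, but they lay further from each other than mutant 2 from the controls. Without mutant 2 the change was 1.16 (edgeR adjusted p = 0.0154) and without mutant 1 it was 0.51 (0.360). With every beta-like cell thinned to 3000 UMIs, at least 1 Prlr UMI was found in 81.6% and 65.2% of mutant and 57.8% and 52.1% of control beta-like cells, and 5 or more UMIs in 13.02% and 3.57% of mutant and 1.17% and 0.562% of control cells. Thinning left out 163 and 174 shallower cells of the mutants and 288 and 204 of the controls, and before it 87.6% and 78.3% of mutant and 70.4% and 71.7% of control cells had a Prlr UMI. The same thinned share was 12.2% and 4.70% in mutant and 1.85% and 5.61% in control alpha-like cells.

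Ffar4, at 1.71 and 2.79 CPM in mutant samples 1 and 2, against 5.22 and 7.11 CPM in controls 1 and 2 (16, 27, 62 and 86 UMIs), had a log2 change of −1.54 ± 0.316 with an edgeR adjusted p of 0.0671. Both mutants were below both controls. Carry-over from delta cells in the ratio of their somatostatin would give 0.294 and 0.363 CPM in mutant and 0.461 and 1.03 CPM in control beta-like cells. The delta markers, 7 or 8 of 8 detected, were also lower there, with sums of 714 and 1145 CPM in the mutants and 1167 and 1511 CPM in the controls, and the 8 acinar markers summed to 27.4 and 27.9 CPM in the mutants and 104 and 154 CPM in the controls. The part of either in the Ffar4 difference was not tested beyond the carry-over values.

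**Figure D3:**
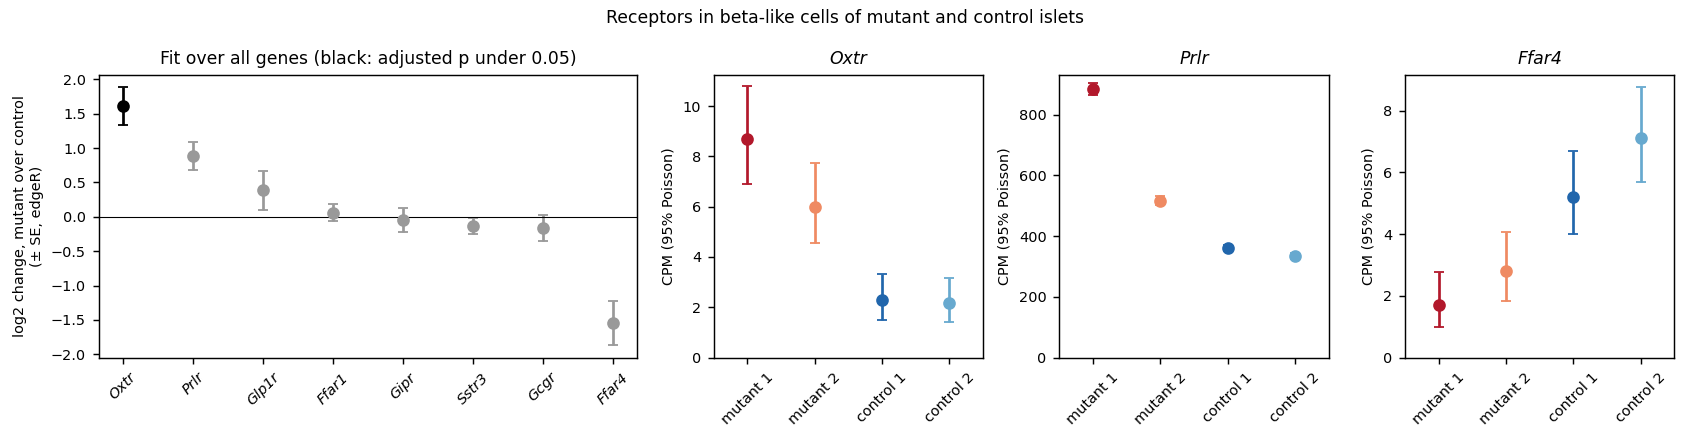
Left, log2 change of the 8 tested receptors in beta-like cells, mutant over control (y axis, ± SE), with Oxtr in black as the receptor with an adjusted p under 0.05; right, level of Oxtr, Prlr and Ffar4 per sample (CPM, 95% Poisson intervals that cover counting error). Oxtr and Prlr stand higher and Ffar4 lower in both mutants than in both controls.

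The other receptors of the beta-like cells showed no called difference. Glp1r, at 8.03 and 10.96 CPM in the mutants against 8.08 and 5.37 CPM in the controls, had a log2 change of 0.39 ± 0.284, which was 0.062 when mutant 2 was left out, 0.077 for control 2, 0.64 for mutant 1 and 0.77 for control 1. Ffar1 had 0.06 ± 0.123, Gipr −0.04 ± 0.175, Sstr3 −0.13 ± 0.122 and Gcgr −0.16 ± 0.185 (edgeR adjusted p between 0.572 and 0.943 for these 5). The sign of Gipr turned under 5 alternative settings and those of Sstr3 and Ffar1 under 1 each.

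Beta-like cells of the groups did not lie in the same clusters. Clusters 7 and 10, in which Ccng1 was a leading gene, took 78.5% and 57.0% of this class in the mutants, against 1.53% and 2.01% of it in the control samples. Clusters 12 and 13, with Atf5 among their leading genes, took 3.85% and 4.19% for mutants 1 and 2, against 48.5% and 56.6% for controls 1 and 2. Cluster 3, led by Ins2 and Ins1, held at least 63 cells of every sample. There Prlr had 504 and 281 CPM in the mutants and 245 and 205 CPM in the controls, and Oxtr 16.998 and 10.1 CPM in the mutants and 4.02 and 1.79 CPM in the controls (3, 4, 1 and 2 UMIs for Oxtr). Both mutants were above both controls there too for these receptors, though for Oxtr the 95% Poisson intervals of the samples overlapped. For Ffar4 cluster 3 gave 5.67 and 10.1 CPM in the mutants and 12.0 and 8.06 CPM in the controls, an overlap. Cluster 3 also held 5286 CPM of glucagon RNA, the most of the beta-like clusters. In cluster 2 Prlr was 337 and 231 CPM in the mutants and 242 and 182 CPM in the controls. Oxtr there was 0 and 5.49 CPM in the mutants and 1.82 and 0 CPM in the controls, so both overlapped. In cluster 0 Prlr was 747 and 394 CPM in the mutants and 262 and 296 CPM in the controls, while Oxtr overlapped. Clusters 7, 10, 12 and 13 held 4 to 32 cells per sample in the group with fewer. Prlr overlapped in cluster 7, at 765 and 428 CPM in the mutants and 166 and 461 CPM in the controls. It also did in cluster 13, at 745 and 282 CPM in the mutants and 392 and 351 CPM in the controls. In cluster 10 the mutants had 965 and 599 CPM and the controls 556 and 548 CPM. In cluster 12 the mutants had 898 and 404.9 CPM and the controls 404.8 and 354 CPM. The share of all genes without overlap in single clusters was not computed.

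Both mutants were near 0 in the targeted gene among cells that held Xist but lacked Y-linked counts. Atf4 in such beta-like cells was at 0.709 and 9.96 CPM in the mutants, against 326 and 439 CPM in the controls, in 220 and 154 mutant and 224 and 153 control cells. There Prlr had 1008 and 697 CPM in the mutants and 370.3 and 344 CPM in the controls (log2 change 1.14 ± 0.165, edgeR adjusted p = 0.00320). Oxtr had 6.74 and 8.06 CPM in the mutants and 1.12 and 0.456 CPM in the controls, from 19, 17, 3 and 1 UMIs (2.97 ± 0.594, adjusted p = 0.0237), and Ffar4 1.77 and 1.42 CPM in the mutants and 9.74 and 6.39 CPM in the controls (−2.41 ± 0.507, adjusted p = 0.0294). All 3 passed there, where 1.93% of 10676 genes did. Oxtr came through the low-count filter in this set by the mutants alone, and Ffar4 by the controls alone. Their calls in this set are thus no independent support for a difference. In beta-like cells holding Y-linked but no Xist UMIs, where mutant 2 had 185 CPM of Atf4 against 5.52 CPM in mutant 1, the changes kept their signs and none of the 3 passed (Oxtr 1.88, Prlr 0.78 and Ffar4 −1.87, edgeR adjusted p 0.267, 0.408 and 0.316; 0.120% of 11637 genes passed). Whether the change itself differed between the sets of cells was not tested.

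**Figure D4:**
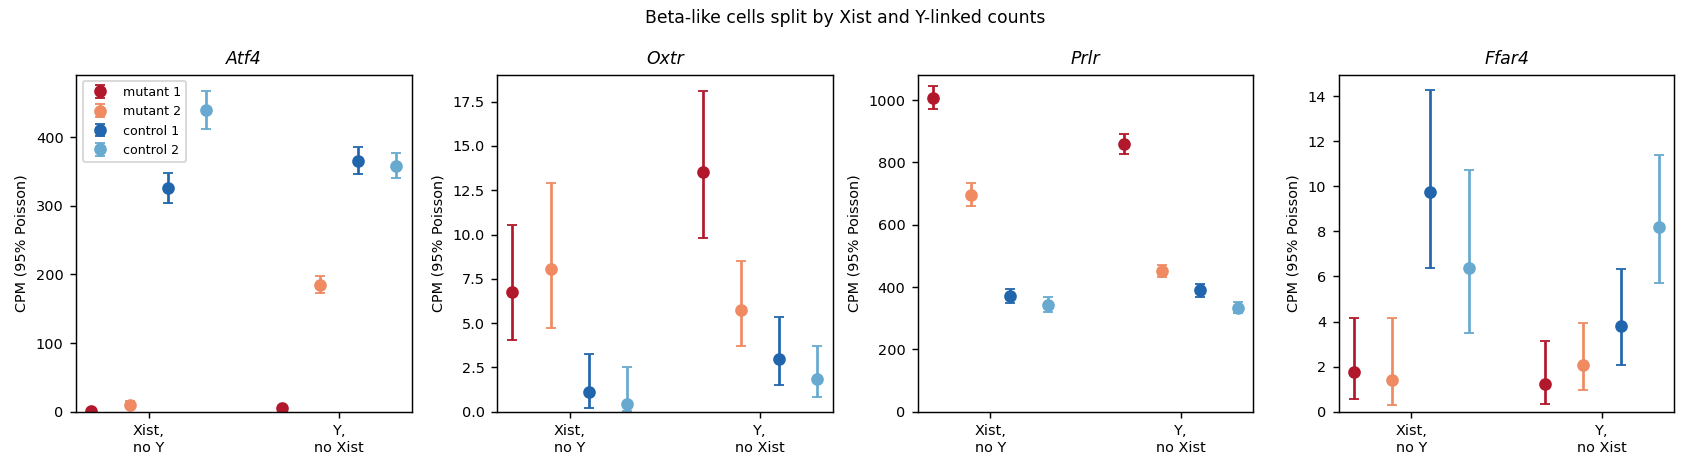
Levels of Atf4, Oxtr, Prlr and Ffar4 (y axis, CPM, 95% Poisson intervals) for 2 sets of beta-like cells, those with Xist but free of Y-linked counts and the converse, per sample. Mutant 2 has 9.96 CPM of Atf4 in the first set and 185 CPM in the second, and its Prlr level is 697 CPM in the first and 451 CPM in the second.

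Within mutant 2, Prlr was higher in cells with no Atf4 UMI than in cells with any. Among beta-like cells over 8000 UMIs, Prlr was 639 CPM (95% Poisson interval 615 to 665) in the 233 cells of mutant 2 with no Atf4 UMI, 462 CPM (426 to 501) in the 90 cells with 1 or 2, and 469 CPM (443 to 496) in the 132 cells with at least 3. The intervals of the last 2 sets overlapped. Since these sets also differed in depth, as given below, they cannot tell whether the level was graded with the Atf4 count. Mutant 1 had 949 CPM in its 390 cells with no Atf4 UMI. The controls had too few such cells with no Atf4 UMI for the same comparison. Their Prlr was 323 and 274 CPM in cells with 1 or 2 Atf4 UMIs and 407 and 369 CPM in cells with at least 3. The sets also differed in depth, with medians of 15159, 12238.5 and 18129.5 UMIs per cell in mutant 2. In the controls the medians were 9979 and 11287 with 1 or 2 Atf4 UMIs, and 16245 and 17512 with at least 3. Mutant 2 thus lay under mutant 1 in cells without Atf4 UMIs and above both controls in cells with them. Oxtr was 7.36 and 5.06 CPM in those cells of mutant 2, from 29 UMIs in the first, and Ffar4 was 2.54 and 3.11 CPM, with overlapping counting intervals. Other receptors of mutant 2 also differed between cells with no Atf4 UMI and cells with at least 3, beyond the counting intervals. Glp1r was lower in the first (8.12 CPM against 18.7) and Sstr3 higher (143 against 111 CPM). Control cells with at least 3 Atf4 UMIs had 8.58 and 5.68 CPM of Glp1r and 139 and 130 CPM of Sstr3. Atf4 in mutant 2 also followed the split by Xist and Y-linked counts above. Sstr3 was lower in beta-like cells with Y-linked counts than in those with Xist in all 4 samples. In mutant 1 it was 94.5 CPM in the former and 158 CPM in the latter. The part of that split in these values was not tested. The Atf4 sets of mutant 2 come from 1 library, cells of a pool are not replicates, and no test was made.

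**Figure D5:**
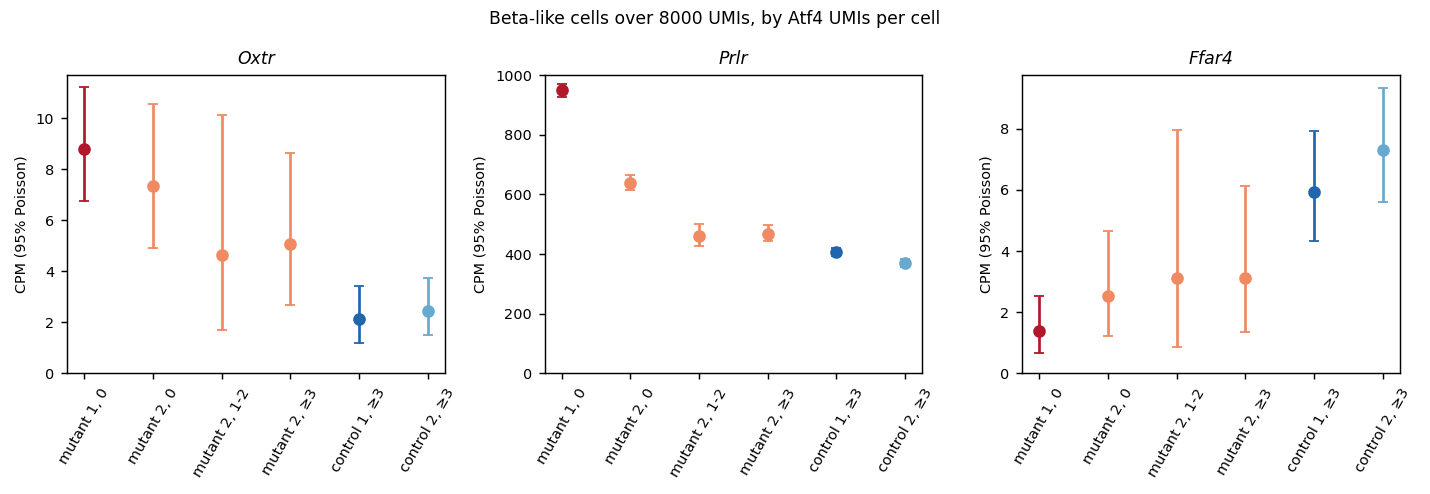
Levels of Oxtr, Prlr and Ffar4 (y axis, CPM, 95% Poisson intervals) in beta-like cells over 8000 UMIs, by sample and Atf4 UMIs per cell (x axis). In mutant 2 Prlr is 639 CPM in cells with no Atf4 UMI and 469 CPM in cells with at least 3.

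Outside the beta-like cells no receptor passed between mutants and controls. The edgeR test (adjusted p under 0.05) called 0 of 5 receptors tested in alpha-like cells (1 at an unadjusted p under 0.05), 0 of 6 in delta-like cells (2), 0 of 5 in PP-like cells (2) and 0 of 10 in the sums of all deposited barcodes (2), where 0.168%, 0.190%, 0.0233% and 0.0663% of all genes passed. At an unadjusted p under 0.05 stood 817 of 8947, 798 of 10001, 559 of 8581 and 2061 of 15074 genes. DESeq2 and limma-voom called 0 in each of these 4 fits. In the sums of all barcodes, fewer cells of a type and less RNA per cell cannot be told apart. Oxtr in alpha-like cells, its leading class, changed by −0.16 ± 0.215 (edgeR adjusted p = 0.874), and Ffar4 in delta-like cells by −0.26 ± 0.231 (0.826). In delta-like cells Oxtr had both mutants above both controls, with a log2 change of 0.64 ± 0.249 that did not pass (edgeR adjusted p = 0.536). The share of all genes without overlap was not computed for delta-like cells. The mutant effect on Oxtr differed between beta-like and alpha-like cells by 1.76 ± 0.358 on the log2 scale (edgeR interaction test, adjusted p = 0.0160), and 0.315% of genes passed that test. It did not pass without mutant 1 (adjusted p = 0.0598), without control 1 (0.315) or without control 2 (0.0987). The same difference against delta-like cells, 0.93 ± 0.401, and against PP-like cells, 1.37 ± 0.457, did not pass (edgeR adjusted p = 0.927 and 0.645). Prlr had a positive change in all 4 classes, 0.89 in beta-like, 0.94 in alpha-like, 0.64 in delta-like and 0.69 in PP-like cells, and passed in none of them. Single samples moved these values: the alpha-like change was 0.10 without mutant 1 and 1.54 without mutant 2 (edgeR adjusted p = 0.0253), the delta-like one 0.90 without mutant 2 (0.0266), 1.02 without control 1 (0.000131) and 0.35 with either of the other samples left out, and the PP-like one 0.41 without control 1. The beta-like change minus that in alpha-like, delta-like and PP-like cells was −0.06 ± 0.457, 0.21 ± 0.215 and 0.10 ± 0.234, with edgeR adjusted p of 0.989, 0.992 and 0.994. In the delta-like and PP-like clusters the insulin RNA given above stood beside these values. Alpha-like sums held 6912 and 18295 CPM of insulin RNA in the mutants and 15677 and 18842 CPM in the controls. The beta-like sums held 303391 to 358454 CPM. The part of RNA carried over from beta cells in the Prlr changes of the 3 other classes was not tested.

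Downstream of the receptors, 7 lists of genes for their cascades, ligands and companions held few calls in beta-like cells, where 0.825% of all genes were called and 1987 of 13461 had an unadjusted p under 0.05. The list of other islet receptors had 0 of 26 tested members called (edgeR, with 4 at an unadjusted p under 0.05, DESeq2 1, limma-voom 0; median log2 change 0.03, against 0.01 over all genes). The purinergic receptor P2ry1, at 142 and 110 CPM in the mutants against 80.3 and 64.6 CPM in the controls, had an adjusted p of 0.103. In the cyclic AMP list 1 of 26 rose, the phosphodiesterase Pde10a, which degrades cyclic nucleotides, with 262 and 198 CPM in the mutants against 65.5 and 60.7 CPM in the controls (log2 change 1.75 ± 0.150, edgeR adjusted p = 0.00136). Of 17 JAK-STAT genes and prolactin targets 1 fell, the feedback inhibitor Socs3, with 31.9 and 21.8 CPM in the mutants against 47.2 and 82.9 CPM in the controls (−1.38 ± 0.233, edgeR adjusted p = 0.0338). Of 8 ligands made in islets 2 fell, Npy, with 8.46 and 18.9 CPM in the mutants against 83.4 and 60.4 CPM in the controls (−2.49 ± 0.331, edgeR adjusted p = 0.0159), and Pyy, with 519 and 374 CPM in the mutants against 704 and 768 CPM in the controls (−0.84 ± 0.140, adjusted p = 0.0332). The median of that list was −0.58. Several of its members are hormones of other islet cells, and markers of those cells moved the same way in the beta-like sums: the 7 PP markers, 6 or 7 of them detected, summed to 1245 and 787 CPM in the mutants and 1471 and 1804 CPM in the controls, beside the delta sums given above. Their part in the Pyy, Npy and median values was not tested. The list of inhibitory G proteins had 0 of 22 members called with edgeR (6 at an unadjusted p under 0.05, DESeq2 1, limma-voom 0) and a median of 0.09. The list of Gq and phospholipase C had 0 of 19 (6 at an unadjusted p, DESeq2 2, limma-voom 0) and a median of −0.01, and that of receptor trafficking 0 of 15 (2 at an unadjusted p, DESeq2 1, limma-voom 0) and a median of 0.05.

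Across the 16 sums of sample and endocrine class, the genes most like each receptor in log2(CPM + 1) were named from 10646 genes. The sums share libraries and classes, so the correlations are descriptions. For Prlr they were St8sia5, Gng12 and Cntnap2 (Pearson r 0.969, 0.968 and 0.968), and Gng12 is a G protein subunit. For Oxtr they were Wwc1, Corin and Serpine2 (0.971, 0.963 and 0.960), and for Ffar4 Ucp2, Rbp4 and Kifc3 (0.979, 0.974 and 0.964). Gcgr was most like Tubb3, Lgalsl and Gpr45 (0.965, 0.958 and 0.9501), Ffar1 like Dnajc24, Rfk and Tspyl4 (0.947, 0.928 and 0.926), and Sstr3 like Baiap2, Sdc3 and Ndufb2 (0.879, 0.855 and 0.849). Glp1r, with low counts, was most like Zmpste24, Vsnl1 and Robo1 (0.902, 0.887 and 0.871), Gipr like Cdkn2b, Selt and Tmem167b (0.914, 0.882 and 0.846), and Ghsr like Mef2c, Rnaset2b and Cd164l2 (0.912, 0.909 and 0.901). Lepr, with the fewest counts, was most like Dmxl2, Chtf8 and Tmem129 (0.818, 0.808 and 0.807).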

How the data were processed

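The matrices were used as deposited: UMI counts per gene symbol and barcode, made by the authors; per the submitters' processing notes the genome was mm10 and Seurat was used. Aligner, counter and strand setting are not given in the sources used here. Samples were grouped by title. The receptors, lists, markers and rules were chosen with earlier results of these data known. Filters of 500 detected genes or more and a mitochondrial share below 20% left 6995 cells. Scrublet marked 28 of them (0.400%), a sign that it had failed, so doublets may be present; the remaining 6967 were clustered with scanpy 1.11.5 (2000 variable genes, 30 components, 15 neighbours, Leiden resolution 1). Cluster naming was completed after clusters were seen; delta-like was decided by its first leading marker against haemoglobin genes. Rebuilt names may differ from the authors'.

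For each class the counts of a sample were added up and compared in edgeR 4.0.16 (filterByExpr, TMM, quasi-likelihood F, Benjamini-Hochberg over all genes tested, threshold 0.05); the standard error is the log2 change over the square root of F. DESeq2 1.42.0 and limma 3.58.1 were alternatives. Poisson intervals cover counting error only. Carry-over is a receptor's level in its leading class times the ratio of that class's hormone. Shared replicate numbers did not pair the samples. The fits were run on simulated data with known changes, where the interaction test was not required to recover a set share of them. Besides the receptors, genes were named as the up to 4 lowest p among list members that passed and the 3 most correlated genes per receptor; P2ry1 was chosen after its values were seen.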

Additional observations from a re-analysis of the deposited data

Results flagged for a closer look

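The mutant effect on Oxtr, the oxytocin receptor, differed between beta-like and alpha-like cells by the interaction test, with a difference of 1.76 on the log2 scale (beta-like minus alpha-like, edgeR adjusted p = 0.0160). Both mutants were above both controls in beta-like cells, while in alpha-like cells the values of the groups overlapped, with 94.2 and 65.2 CPM in the mutants and 94.4 and 79.9 CPM in the controls. With 2 samples per group, samples far from their group could not be looked for.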

How the results depend on the processing

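Each result was recomputed with other scalings, filters, tools, cell filters, clusterings, sets of cells and with each sample left out. The receptors called in beta-like cells, 1 of 8, became 2 under scaling by library totals alone and with DESeq2, 3 without the low-count filter, with the replicate block and in cells with Xist but no Y-linked counts, and 0 in those with Y-linked counts only and with the digestive-enzyme cluster counted in; leaving out 1 sample gave 0 to 3. They were drawn from Oxtr, Prlr and Ffar4 alone. In the Xist cells Oxtr and Ffar4 came through the low-count filter by their higher group alone, so those calls are no independent support. Oxtr kept its sign throughout (log2 change 1.28 to 2.97), as did Prlr (0.51 to 1.16) and Ffar4 (−2.41 to −1.19). Without mutant 1 no receptor passed, and without control 1 or control 2 all 3 did, in fits where 1 group held a single sample, assumed to vary like the others. The genes called in beta-like cells, 111, became 212 with library totals (shifting the all-gene median by 0.12), 217 without the filter, 238 with DESeq2, 359 with the replicate block, 241 with the block by library name, 206 in Xist cells, 14 in cells with Y-linked counts and 62 with the digestive-enzyme cluster; leaving out 1 sample gave 38 (without mutant 1) to 535 (without control 1).

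Same-numbered samples did not deviate together (correlation −0.053), so the block pairs samples by a number only. With 2 samples per group, the correlation for the crossed library names, 0.053, is the same value with its sign turned. It is no second check. Prlr alone was called in alpha-like cells at Leiden resolution 0.5 (1 receptor) and without mutant 2 (range 0 to 1 over samples left out), in delta-like cells without the filter (1), with the block by library name (1) and with samples left out (0 to 1), and in PP-like cells with the replicate block (1), while samples left out gave 0 there and in all barcodes. The 32 receptor calls between classes became 18 in the hormone gate and 19 in a gate at 50%, where 5 receptors passed the filter, and 27 to 31 with samples left out. The 1 call of the interaction became 0 to 2 with samples left out.

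Signs turned for Gipr in beta-like cells (0.062 with library totals, 0.13 in Xist cells, 0.013 with the digestive-enzyme cluster, and −0.22 to 0.10 with samples left out, positive without mutant 1 or control 2), Sstr3 (0.059 in Xist cells) and Ffar1 (−0.050 without mutant 2 to 0.14 without mutant 1). They turned for Oxtr in alpha-like cells (−0.40 to 0.072 with samples left out, the last without mutant 2) and PP-like cells (−0.40 without mutant 2, −0.25 without control 1 and up to 0.56), for Ffar4 in delta-like cells (−0.51 to 0.015 with samples left out, the last without control 2, and 0.028 in the gate) and between alpha-like and delta-like cells (0.22 with the stricter cell filter). The difference of the Prlr change between beta-like and alpha-like cells was 0.040 with library totals, −0.36 to 0.43 with samples left out, the last without mutant 1, 0.49 with the looser and 0.074 with the stricter cell filter. None of these passed the test, and the cause was not tested. Leiden resolution 0.5 formed no PP-like class. Depth limits Ghsr, Lepr, Glp1r and Gcgr, whose sums outside their leading class hold few UMIs.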
